A study of Rattus norvegicus with 7 samples.

Results

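Rows for 8 genes of the small heat shock protein family were taken by symbol from 17147 listed genes: Hspb1, Hspb2, Hspb3, Cryab, Hspb6, Hspb7, Hspb8 and Hspb11. Their mRNA was measured in rMSCs, unmodified mesenchymal stem cells from the hind limb bone marrow of a male Sprague-Dawley rat aged 6 weeks, grown in alpha MEM with 10% FBS. RNA was collected 4 h after 20000 cells had been placed on the plastic of a tissue culture plate (TCP), on a film of polycaprolactone (PCL), or on a film of the PCL polyurethane copolymer made with propoxylated isosorbide (ISB-P). Both films were 16 mm across and had been treated with ethylene oxide gas. Each film had 3 libraries and TCP had 1, and the comparison of ISB-P with PCL asks how the copolymer changes the transcripts of cells that have just attached. The methods describe a single rat as donor, and nothing in the sample labels says that libraries of a group came from separate cultures, so p-values here measure only the spread between these libraries, which may be technical.

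Small heat shock proteins share an alpha-crystallin domain, form large changing oligomers, and hold unfolding proteins without using ATP until the Hsp70 machinery or a degradation route takes them over. Hspb1 (Hsp27) and Cryab (alpha-B-crystallin) are found in many tissues, bind actin and intermediate filaments, and are classic targets of the heat shock factor HSF1, which binds repeated GAA units known as heat shock elements. Hspb8 works with the co-chaperone Bag3 in the autophagy of damaged proteins, whereas Hspb2, Hspb3, Hspb6 and Hspb7 are known mainly from muscle. Hspb11 carries the family's name but is better known as Ift25, a subunit of the intraflagellar transport complex of the cilium.

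Promoter sequences were available in the RefSeq table used here for 5 of the 8 members, Hspb1, Hspb3, Hspb6, Hspb7 and Hspb8, as windows of 300 bases from 250 before to 50 after the gene's start. The windows were searched for a pair of GAA units facing each other, GAANNTTC, or back to back, TTCNNGAA, each of which reads the same on both strands. Hspb1 and Hspb8, which were both higher on ISB-P, and Hspb6, which was not, held such a pair. Their 250 bases before the start are printed 5′ to 3′ on the gene's strand, in lower case with these pairs in capitals, from chr12:26432302-26432551 (minus strand), chr12:45837058-45837307 (plus strand) and chr1:94934122-94934371 (plus strand) of the GRCr8 build.
Hspb1: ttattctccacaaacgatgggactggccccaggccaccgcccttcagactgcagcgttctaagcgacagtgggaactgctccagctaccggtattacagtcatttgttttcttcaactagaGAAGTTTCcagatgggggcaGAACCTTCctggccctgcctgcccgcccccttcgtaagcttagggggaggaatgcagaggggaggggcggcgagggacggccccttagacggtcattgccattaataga
Hspb8: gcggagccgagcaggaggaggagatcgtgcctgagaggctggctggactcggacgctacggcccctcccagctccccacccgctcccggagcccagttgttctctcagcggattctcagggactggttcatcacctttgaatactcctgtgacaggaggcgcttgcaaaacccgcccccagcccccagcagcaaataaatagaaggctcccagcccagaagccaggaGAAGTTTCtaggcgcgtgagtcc
Hspb6: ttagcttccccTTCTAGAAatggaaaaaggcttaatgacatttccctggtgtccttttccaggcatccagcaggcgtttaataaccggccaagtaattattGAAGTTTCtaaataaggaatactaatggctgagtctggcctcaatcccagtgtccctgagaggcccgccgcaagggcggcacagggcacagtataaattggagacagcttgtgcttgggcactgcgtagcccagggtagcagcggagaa

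The Hspb1 window held GAAGTTTC at position −129 and GAACCTTC at −109, counted back from the start. In the Hspb8 window GAAGTTTC began at −23, and the Hspb6 window held TTCTAGAA at −239 and GAAGTTTC at −149. The windows of Hspb3 and Hspb7 held no such pair. Of 33469 promoter windows of the same length, 8.59% held GAANNTTC, 8.77% held TTCNNGAA and 15.9% held either. The longer motif in which either pair is carried on by a further unit, 3 in all with the same spacing on either strand, was in none of the 5 windows and in 0.798% of all windows. The letters TATAAA, searched on both strands, were found in the windows of Hspb3, Hspb6 and Hspb7 and in 14.2% of all windows. These matches describe letters in a window and not bound sites.

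The deposited values were taken to be FPKM, which divides fragments by transcript length and library total, and they summed to between 539393 and 660124 in a library. Read depth was unknown. Of 9 mesenchymal stem cell markers, 7 were above 10 FPKM in all 7 libraries, while Col1a2 was listed at 0 in every library, as were the housekeeping genes Rps6 and Hprt1, chosen after their values were seen. An exact 0 can therefore be a failed estimate. All 9 markers of skeletal and heart muscle and all 4 endothelial markers were under 2 FPKM in every library. Smooth muscle markers were abundant in sum, with a summed level of 3218 FPKM in the TCP library, 2790 to 2912 in the PCL libraries and 2728 to 3258 in those of ISB-P. Most of the TCP sum was Tagln (2260 FPKM) and Acta2 (832), whereas Myh11 lay between 4.29 and 8.56 FPKM over the 7 libraries.

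Small heat shock protein transcripts were led by Hspb1 in all 7 libraries. In 6 libraries the members stood in the order Hspb1, Hspb8, Hspb6, Hspb7, Cryab, Hspb11, Hspb2 and Hspb3 from the highest FPKM to the lowest. In PCL replicate 3 Hspb11, at 9.61 FPKM, stood above Cryab, at 8.40. Neighbours in this order were not all apart: the Hspb6 and Hspb7 values overlapped on both films, as did those of Hspb7 and Cryab on ISB-P and those of Cryab and Hspb11 on PCL, so that only Hspb1 and Hspb8 at the top, and the step from Hspb11 down to Hspb2, were clear of the spread between libraries on both films. The last place of Hspb3 rests on values listed at 0. Of the 8 genes, 6 passed the filter of 1 FPKM or more in 3 or more film libraries and were tested between films with limma on log2(FPKM + 1), with p adjusted by the Benjamini-Hochberg method over all 9467 genes tested.

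Hspb1, Cryab and Hspb8 were higher on ISB-P than on PCL at an adjusted p under 0.05 in limma, against 1.10% of all tested genes called higher. None of the 6 was lower, also at an unadjusted p under 0.05, against 0.623% of all tested genes called lower. The same 3 genes were those whose libraries did not overlap between films, with every ISB-P value above every PCL value, a pattern shown by 8.17% of tested genes. The median log2 fold change was 0.63 over the 6 tested members and 0.016 over all tested genes.

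**Figure D1:**
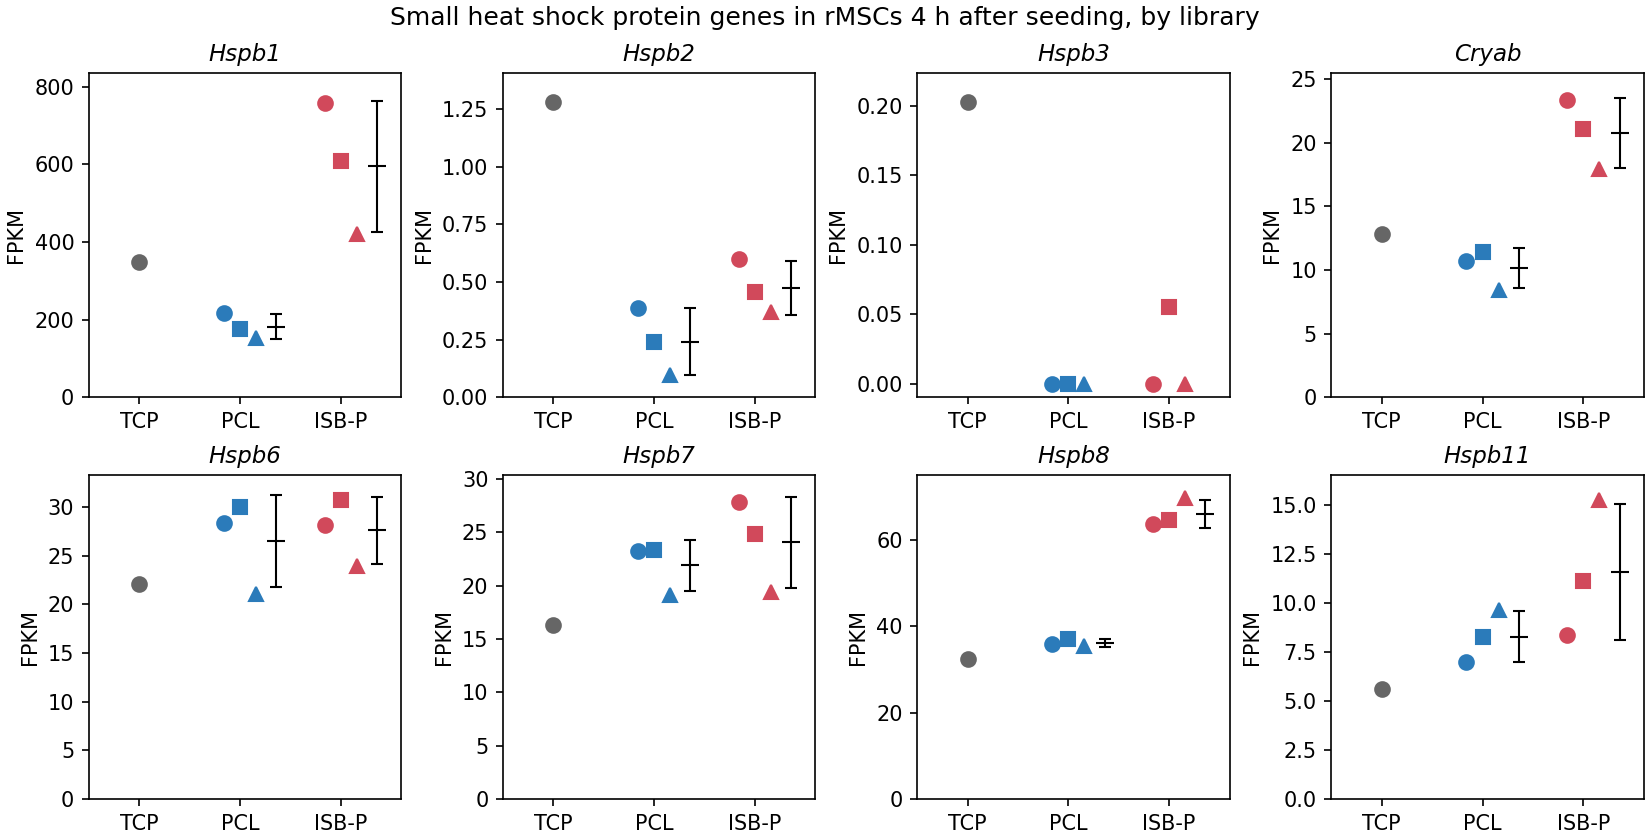
FPKM of each of the 8 genes in each library, on a separate linear axis for each gene, with grey points for TCP, blue for PCL and red for ISB-P, the replicate number given by the marker shape (circle 1, square 2, triangle 3), and black bars for the mean ± SD of 3 libraries. Every ISB-P point lies above every PCL point for Hspb1, Cryab and Hspb8. Hspb3, listed at 0 in 5 of 7 libraries, has no mean.

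Hspb1, which caps and stabilises actin filaments and delays the aggregation of unfolded proteins, was at 217, 176 and 153 FPKM in PCL replicates 1, 2 and 3 and at 756, 609 and 419 FPKM in the same replicates of ISB-P. All 3 ISB-P libraries lay above all 3 PCL libraries, and the lowest ISB-P value belonged to replicate 3, as did the lowest PCL value. The mean was 182 ± 32.4 FPKM on PCL and 595 ± 169 on ISB-P (SD, n = 3 each), a log2 fold change of 1.68 with an SE of 0.24, or 3.20-fold with a 95% interval from 2.15 to 4.76 (limma, adjusted p = 0.0267). Within replicate numbers 1, 2 and 3 the ratio of ISB-P to PCL was 3.49, 3.46 and 2.75. Among the 17147 genes Hspb1 ranked 385, 497 and 625 by FPKM on PCL and 133, 155 and 256 on ISB-P.

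The direction of Hspb1 held in every alternative, with log2 fold changes from 1.48 to 1.91, but the call did not. With 1 library left out, the limma adjusted p was 0.0688 without PCL replicate 1, 0.170 without PCL replicate 2, 0.113 without PCL replicate 3, 0.0540 without ISB-P replicate 1 and 0.170 without ISB-P replicate 2, and it was 0.00819 without ISB-P replicate 3. Under the 3 scalings between libraries it was between 0.0549 and 0.0633. With replicate numbers as a block in the limma fit the adjusted p was 4.96e-06, in a fit that called 13.0% of all tested genes higher. An exact two-sided permutation test gave p = 0.1 for Hspb1, Cryab and Hspb8 alike, the smallest that 3 libraries against 3 can give.

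Cryab, the partner that joins Hspb1 in mixed oligomers and protects desmin and other filaments, was far less abundant, at 10.7, 11.4 and 8.40 FPKM in PCL replicates 1, 2 and 3 and at 23.3, 21.1 and 17.9 in those of ISB-P. The films did not overlap, and replicate 3 was the lowest on each. The log2 fold change was 0.96 with an SE of 0.16, or 1.95-fold (limma, adjusted p = 0.0450). The call was the weakest of the 3: adjusted p was 0.0556 with no filter on low values, 0.0568 with a filter at 5 FPKM and 0.0724 to 0.108 under the scalings. It was 0.140, 0.182 and 0.173 without PCL replicate 1, 2 or 3, 0.104 without ISB-P replicate 1, 0.245 without ISB-P replicate 2 and 0.0443 without ISB-P replicate 3. With replicate numbers as a block in the limma fit the adjusted p was 0.000117.

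Hspb8, the small heat shock protein that hands clients to Bag3 and Hsp70, was the second most abundant member, at 35.8, 37.2 and 35.5 FPKM in PCL replicates 1, 2 and 3 and at 63.8, 64.7 and 69.6 in those of ISB-P. Its libraries were the tightest of any member, with a coefficient of variation of 2.40% on PCL and 4.79% on ISB-P, against 17.8% and 28.4% for Hspb1. The mean rose from 36.2 ± 0.868 to 66.0 ± 3.17 FPKM (SD, n = 3 each), a log2 fold change of 0.85 with an SE of 0.11, or 1.80-fold (limma, adjusted p = 0.0213). Hspb8 alone of the members passed under all 3 scalings, with adjusted p from 0.0282 to 0.0440. It missed the threshold without PCL replicate 1 (0.107), PCL replicate 2 (0.165), PCL replicate 3 (0.123), ISB-P replicate 1 (0.0615) and ISB-P replicate 2 (0.168), and passed without ISB-P replicate 3 (0.0433). With replicate numbers as a block in the limma fit the adjusted p was 0.000119.

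**Figure D2:**
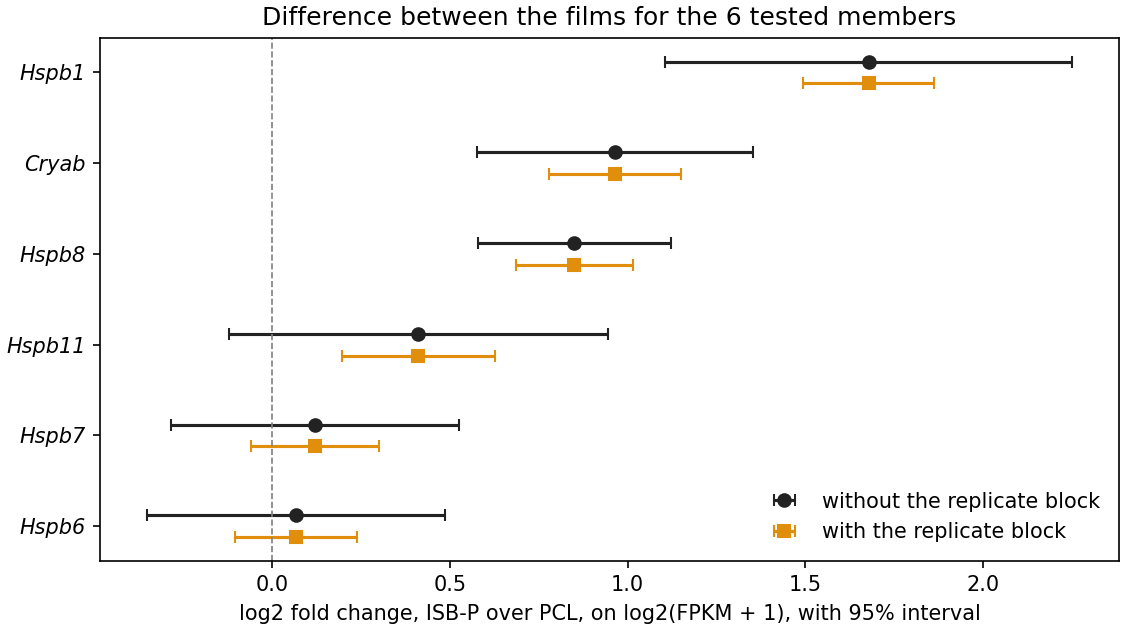
Log2 fold change of ISB-P over PCL on log2(FPKM + 1) for the 6 tested members, with 95% intervals from limma without the replicate number as a block (black circles) and with it (orange squares). Hspb1, Cryab and Hspb8 lie to the right of 0 with both intervals, Hspb6 and Hspb7 span 0 with both, and Hspb11 spans 0 only without the block.

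The members known mainly from muscle showed no call. Hspb6 (Hsp20), which binds 14-3-3 proteins and is phosphorylated when smooth muscle relaxes, was at 28.3, 30.0 and 21.1 FPKM on PCL and at 28.2, 30.7 and 23.9 on ISB-P. The films overlapped, and the log2 fold change was 0.066 with a 95% interval from −0.35 to 0.49 (limma, adjusted p = 0.954) and no steady sign, at −0.083 without PCL replicate 3 and −0.011 without ISB-P replicate 2. Hspb7, a heart and muscle member that binds filamin C, was at 23.2, 23.3 and 19.2 FPKM on PCL and at 27.9, 24.8 and 19.5 on ISB-P. Its films overlapped as well, with a log2 fold change of 0.12 and an interval from −0.28 to 0.53 (limma, adjusted p = 0.914).

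Hspb2 and Hspb3 were close to or at 0 and were not tested. Hspb2, which forms complexes with Hspb3 in muscle and overlaps Cryab in the GRCr8 annotation, was at 0.386, 0.240 and 0.0958 FPKM on PCL, at 0.600, 0.456 and 0.371 on ISB-P and at 1.28 on TCP. The films overlapped by a narrow margin, and TCP was the highest of the 7 libraries. With no filter on low values the log2 fold change of Hspb2 between films was 0.25 (limma, adjusted p = 0.377). Hspb3 was listed at 0 in 5 of 7 libraries, and at 0.203 FPKM on TCP and 0.0550 in ISB-P replicate 2. The other genes of the alpha-crystallin family in the files were also under the filter, with Cryaa between 0 and 0.266 FPKM, Hspb9 between 0.413 and 1.45 and Odf1 between 0.106 and 0.448.

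Hspb11, the Ift25 subunit, was at 6.98, 8.24 and 9.61 FPKM in PCL replicates 1, 2 and 3 and at 8.35, 11.1 and 15.2 in those of ISB-P. The films overlapped, while each ISB-P library lay above the PCL library of its own number, at 1.20, 1.35 and 1.59 times its value. The log2 fold change was 0.41 with a 95% interval from −0.12 to 0.94 (limma, adjusted p = 0.585). With replicate numbers as a block in the fit, the interval was 0.20 to 0.63 and the adjusted p 0.0156, so that 4 members were called higher in that fit, against 13.0% of all tested genes. Ift27, which binds Ift25 directly, had a log2 fold change of −0.081 (limma, adjusted p = 0.946). Of 15 tested subunits of intraflagellar transport complex B, 0 were higher in limma, also at an unadjusted p under 0.05, and 1 was lower, Ttc30b, at 3.75, 4.58 and 4.56 FPKM on PCL and 1.83, 2.04 and 2.17 on ISB-P (log2 fold change −0.81, adjusted p = 0.0267). Without the block, 1.10% of all tested genes were called higher and 0.623% lower. With the replicate block Ift88 was called higher (log2 fold change 0.29, limma, adjusted p = 0.0344) and Ttc30b lower. The block fit called 13.0% of all tested genes higher and 11.4% lower. The median log2 fold change of the 15 was −0.081, against 0.016 over all tested genes.

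The single TCP library placed the members differently, and no test was run against it. Hspb1 was at 349 FPKM on TCP and Cryab at 12.8, both above all 3 PCL libraries and below all 3 ISB-P libraries, a position held by 0.919% of tested genes. Hspb8 (32.4 FPKM), Hspb7 (16.3) and Hspb11 (5.62) were lower on TCP than in all 6 film libraries, as were 29.7% of tested genes. Hspb6, at 22.0 FPKM, lay above only the lowest PCL library.

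The PCL mean of Hspb1 was 0.521 times its TCP value and the ISB-P mean 1.70 times. For Cryab these ratios were 0.792 and 1.62, and for Hspb8 1.12 and 2.04. The ratios of Hspb11 were 1.47 and 2.06 and those of Hspb2, at levels under 2 FPKM, 0.188 and 0.372. On the (FPKM + 1) scale, which shrinks the ratios of low genes, Hspb8 on ISB-P, at 2.01-fold, was the only member more than 2-fold from TCP, against 8.98% of tested genes more than 2-fold higher and 4.28% more than 2-fold lower on ISB-P. With upper quartile scaling its FPKM ratio was 1.88. On PCL no member passed 2-fold on the (FPKM + 1) scale, against 5.56% of tested genes higher and 3.04% lower. Beside these values, 8 of 9 blood and macrophage markers were higher on TCP than in every film library, with a summed level of 70.1 FPKM against 27.8 to 30.5 in the PCL libraries and 22.9 to 27.0 in those of ISB-P, and with Cd34 listed at 0 throughout. TCP was also above every film library for 4 of 9 mesenchymal stem cell markers and 3 of 5 smooth muscle markers. The same held for 3 of 4 endothelial markers and 4 of 9 of skeletal and heart muscle, all at low levels. The share of all tested genes in this position was not counted. The part of the blood and macrophage markers in the TCP values was not tested, and in bulk RNA fewer cells of a type and less RNA per cell cannot be told apart.

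Summed over the 8 members, the family came to 439.7 FPKM on TCP, to 322, 286 and 247 on PCL and to 909, 761 and 566 on ISB-P. The sum followed Hspb1, whose share was 79.4% in the TCP library and averaged 63.6% ± 3.22 on PCL and 79.1% ± 4.63 on ISB-P (SD, n = 3 each). With Hspb1 left out the sum was 90.7 FPKM for TCP, 103 ± 8.45 for PCL and 150.5 ± 3.46 for ISB-P, with no overlap between the films. This remainder still holds 2 called members, Hspb8, with means of 36.2 FPKM on PCL and 66.0 on ISB-P, and Cryab, with 10.2 and 20.8. Each of Hspb2, Hspb6, Hspb7 and Hspb11 overlapped between films. The ISB-P libraries lay at 152, 153 and 147 FPKM in this remainder, whereas their Hspb1 values ranged from 419 to 756 FPKM.

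**Figure D3:**
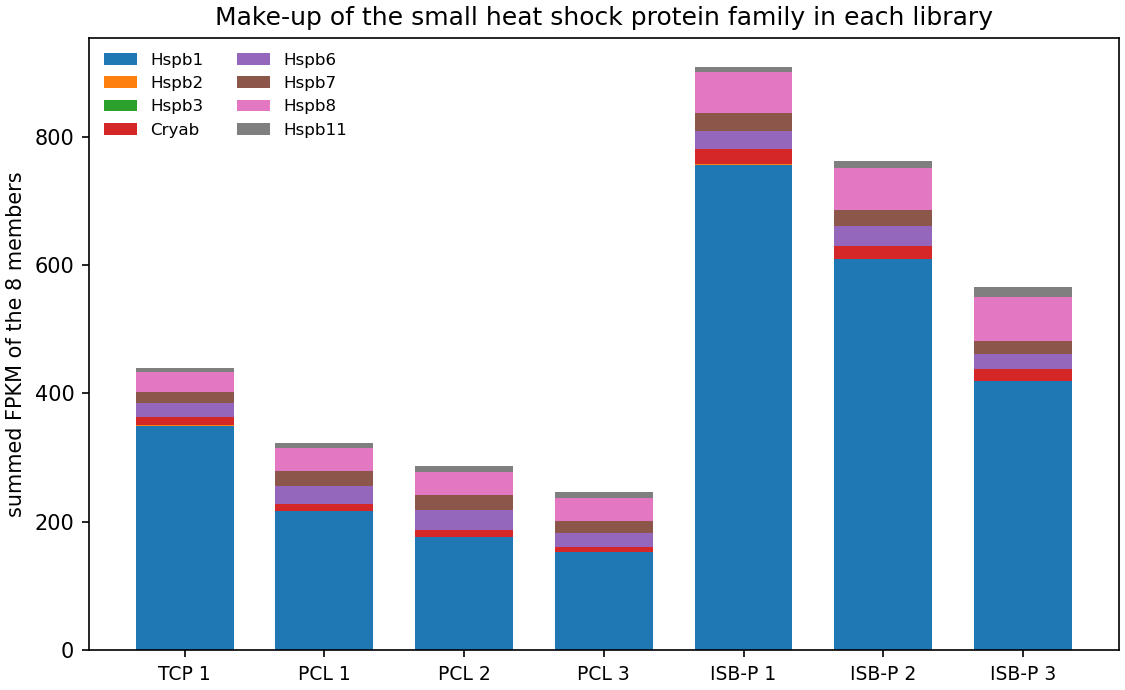
Summed FPKM of the 8 members in each library, stacked by gene on a linear axis from 0. Hspb1 makes up the largest block in every library, from 61.5% of the sum in PCL replicate 2 to 83.3% in ISB-P replicate 1.

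Whether members changed by different amounts was tested on 3 ratios between members, with p adjusted over the 3. The ratio of Hspb1 to Cryab was 20.2, 15.5 and 18.2 on PCL, 32.5, 28.9 and 23.4 on ISB-P and 27.2 on TCP. Every ISB-P ratio was above every PCL ratio, and the mean log2 ratio differed by 0.65 (exact two-sided permutation test, p = 0.1, adjusted 0.3). The ratio of Hspb1 to Hspb8 was 6.05, 4.74 and 4.30 on PCL and 11.9, 9.41 and 6.02 on ISB-P, a difference of 0.82 on the log2 scale with a slight overlap (exact permutation, p = 0.2, adjusted 0.3). The ratio of Cryab to its neighbour Hspb2 lay between 27.8 and 87.7 in the PCL libraries and between 38.8 and 48.3 in those of ISB-P, with 10.0 on TCP, with a difference between films of −0.14 (exact permutation, p = 0.8, adjusted 0.8). The exact test cannot go below p = 0.1 with 3 libraries against 3. It does not use the replicate numbers: within same-numbered libraries the ratios of Hspb1 to Cryab and of Hspb1 to Hspb8 were each higher on ISB-P in 3 of 3 pairs, and that of Cryab to Hspb2 in 1 of 3.

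Other genes of the heat shock response shared the direction of the 3 called members between films. Of 21 tested HSF1 target genes outside the family, 10 were higher on ISB-P and 0 lower in limma (0 lower also at an unadjusted p under 0.05), all 21 had a log2 fold change above 0, and the median was 0.93. Of all tested genes, 1.10% were called higher and 0.623% lower in the same fit. This list of HSF1 targets was written with results of these libraries known and is not independent evidence of its direction. The largest changes were those of the inducible Hsp70 genes Hspa1b (5.69 on the log2 scale) and Hspa1a (5.47), near-identical copies between which reads may be split, the Hsp110 gene Hsph1 (2.38) and the Hsp40 gene Dnaja1 (2.10). Their order over the ISB-P replicates was not shared. Hspa1a fell over replicates 1, 2 and 3, at 954, 646 and 263 FPKM, as Hspb1 did. Hspa1b (146, 181 and 276 FPKM), Hsph1 (289, 301 and 419) and Dnaja1 (447, 558 and 987) rose. With the replicate block 20 of the 21 were called higher, against 13.0% of all tested genes in that fit. Without the block, the count of 10 fell to 5 without PCL replicate 1, 4 without PCL replicate 2, 5 without PCL replicate 3 and 4 without ISB-P replicate 2.

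The gene of the factor itself, Hsf1, was at 21.4, 22.5 and 20.0 FPKM on PCL and at 22.7, 22.7 and 17.8 on ISB-P, with 18.4 on TCP. Its films overlapped (log2 fold change −0.023, limma, adjusted p = 0.975), and none of the 3 heat shock factors tested was called in limma, nor reached an unadjusted p under 0.05.

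Among 10 tested genes of the Hspb8 and Bag3 autophagy route, 2 were higher and 0 lower in limma, with 0 lower at an unadjusted p under 0.05. Of all tested genes, 1.10% were called higher and 0.623% lower. The 2 were Bag3 and Hspa8, both already counted among the called genes of the heat shock response, and no other gene of the route was called. Bag3 itself was at 117, 105 and 89.0 FPKM on PCL, 373, 311 and 230.3 on ISB-P and 156 on TCP. Its films did not overlap, and the log2 fold change was 1.53 with an SE of 0.21 (limma, adjusted p = 0.0213). The constitutive Hsp70 gene Hspa8 followed at 1.40 (limma, adjusted p = 0.00831). The median over the 10 was 0.13, and with the replicate block 4 were called higher and 1 lower, against 13.0% of all tested genes higher and 11.4% lower in that fit.

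Hspb1 is phosphorylated by the kinase MK2 downstream of p38, and of 9 kinase genes of that route in the files 5 passed the filter. Map2k3, which did not pass, was listed at 0 in all 7 libraries, which can be a failed estimate. Mapk14, which encodes p38 alpha, was the 1 called gene and was lower on ISB-P, at 30.8, 30.5 and 31.9 FPKM on PCL and 16.8, 15.9 and 13.7 on ISB-P, with 37.7 on TCP. Its films were far apart (log2 fold change −0.97, SE 0.13, limma, adjusted p = 0.0201). This 1 lower call among 5 tested kinases stood beside 0.623% of all tested genes called lower. No kinase was higher in limma, also at an unadjusted p under 0.05. Phosphorylation was not measured. Of 10 tested filament genes, the binding partners of Hspb1 and Cryab such as vimentin, desmin and actin, 0 were called in limma in either direction, and 1 in each direction passed at an unadjusted p under 0.05. Of all tested genes 1.10% were called higher and 0.623% lower, and the 0 calls among these 10 are near those shares. The share of all tested genes at an unadjusted p under 0.05 was not counted. The median log2 fold change of the 10 was −0.12, and with the replicate block 2 of the 10 were called lower, against 11.4% of all tested genes.

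**Figure D4:**
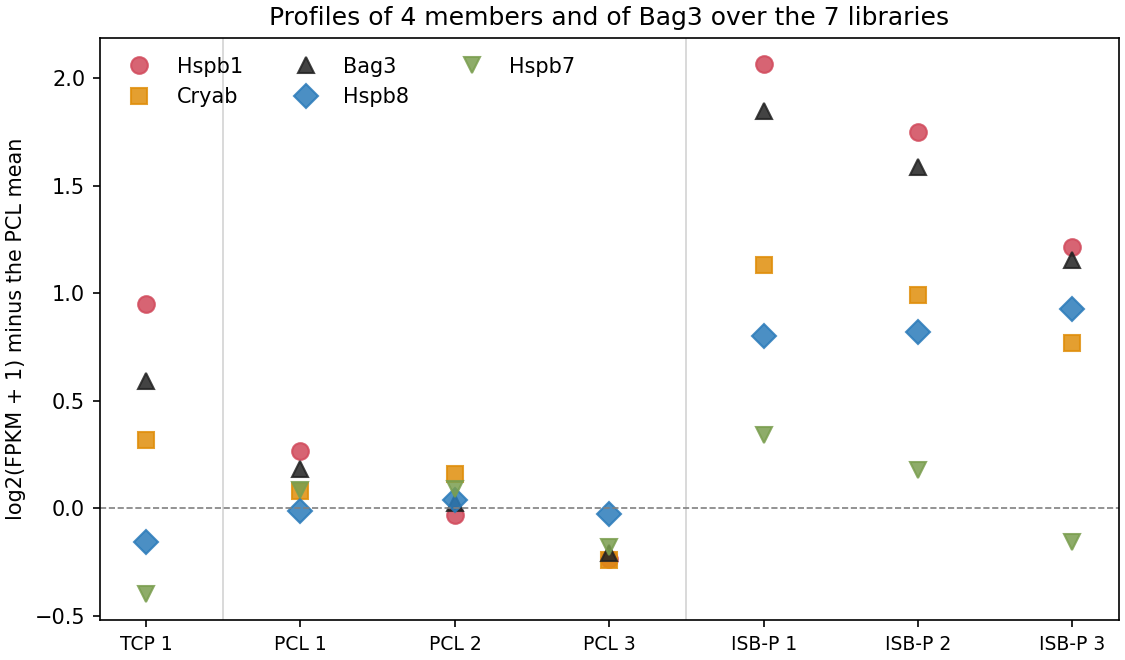
Log2(FPKM + 1) minus the mean of the 3 PCL libraries for Hspb1, Cryab, Hspb8 and Hspb7 and for Bag3, in each of the 7 libraries, with vertical lines between groups. Hspb1, Cryab and Bag3 are highest in ISB-P replicate 1 and lowest there in replicate 3, whereas Hspb8 is highest in replicate 3.

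Within the family, Hspb1 and Cryab had the most alike profiles over the 7 libraries, with a Pearson r of 0.968 on log2(FPKM + 1). Cryab and Hspb8 followed at 0.880 and Hspb6 and Hspb7 at 0.844. Hspb1 and Hspb6 stood at 0.309. These values rest on 7 points that share a donor and include the difference between films, so they are given as a description. Among 3250 genes that passed the filter and varied by at least 1 on the log2 scale, the profiles nearest to Hspb1 were those of Bag3 (0.991), Hspa1a (0.988) and Heyl (0.984). Those nearest to Cryab were Bag3 (0.988), Heyl (0.981) and Banp (0.976). Those nearest to Hspb8 were Aox2 (0.998), Trpm1 (0.995) and Clec2d (0.994). Aox2 was at 0.221 FPKM in the TCP library, 0.531 to 0.561 in the PCL libraries and 3.40 to 3.71 in those of ISB-P. Trpm1 was at 0.701 to 0.745 FPKM in the PCL libraries and 2.08 to 2.10 in those of ISB-P. Both passed the filter of 1 FPKM only through their ISB-P libraries, so their likeness to a gene higher on ISB-P is partly built in. The profiles nearest to Hspb7 were Ppard (0.985), Dot1l (0.979) and Ube2s (0.959), and those nearest to Hspb6 were RGD1309779 (0.875), Ppard (0.848) and Mif (0.782).

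Several members overlap another gene in the GRCr8 annotation, and whether reads were counted by strand is not given in the sources used here, so reads of overlapping genes could have been split between them. Cryab and Hspb2 overlap each other, Hspb6 overlaps Lin37 and Hspb11 overlaps Lrrc42. Lin37, a subunit of a cell cycle repressor complex, was at 26.3, 25.6 and 26.5 FPKM on PCL and 40.1, 33.6 and 30.2 on ISB-P (log2 fold change 0.38, limma, adjusted p = 0.327, and 0.0170 with the replicate block). Its films did not overlap, whereas those of Hspb6 did. Lrrc42 had a log2 fold change of 0.0037 (limma, adjusted p = 0.996), against 0.41 for Hspb11. Hspb1 and Hspb8, both on chromosome 12, overlap no protein-coding gene of that annotation.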

How the data were processed

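Poly(A) RNA of 7 libraries was made with a stranded kit and sequenced as paired ends by the study. The authors deposited 1 value per gene symbol and library, read here as FPKM because the values are not whole, differ in their sums and come with Cuffdiff in the submitters' processing notes. Those notes name bcl2fastq 2.20.0.422, cutadapt 1.18, TopHat2 2.0.13, Cuffdiff 2.2.1 and build rn5. The annotation, the use of strand and the handling of shared reads are not given in the sources used here. FPKM hides read depth, so no counting interval or floor is given, and precision rests on 3 libraries per film.

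Conditions and replicate numbers came from the sample titles. ISB-P and PCL were compared with limma 3.58.1 in R 4.3.3 on log2(FPKM + 1), with a mean-variance trend, two-sided, Benjamini-Hochberg adjusted over the 9467 genes that reached 1 FPKM in 3 or more of the 6 film libraries. A fold change on this scale understates that of low genes. The fit was tested on simulated data in which each library had its own independent noise. That test did not cover deviations shared by libraries of the same number. Deviations from the film mean in libraries of the same number correlated across the 9467 genes at 0.887, 0.431 and 0.867, so the numbers were taken to pair the libraries. The fit without the block is the main one, with the block as an alternative, and the fits with a library left out had no block. Without the block, deviations shared by libraries of the same number count as spread. The SE of Hspb1 was 0.24 without the block and 0.081 with it. Exact tests used scipy 1.17.1, and tables and figures pandas 2.3.3, matplotlib 3.10.9 and Python 3.11.15. RefSeq tables of GRCr8 gave promoters and gene overlaps, by symbol. The deposited values come from rn5, so GRCr8 promoters and overlaps were set beside them by gene symbol alone. Whether the same overlaps hold in rn5 was not checked.

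The members, the gene lists and the alternatives (3 scalings, a pseudocount of 0.1, no filter, a filter at 5 FPKM, the block, TCP in the fit, and each library left out) were chosen with earlier results of these data known. Genes named are all members, the called list genes with the largest changes (at most 4 a list), Bag3, Hsf1 and Ift27. Also named are the 3 profiles nearest to each tested member whose higher film mean reached 16 FPKM. Other names were chosen after their values were seen.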

Additional observations from a re-analysis of the deposited data

How the results depend on the processing

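Of the alternatives run, none turned the direction of Hspb1, Cryab, Hspb7, Hspb8 or Hspb11 between ISB-P and PCL. Hspb6 turned from 0.066 to −0.046 (log2) with scaling to a common total, to −0.083 without PCL replicate 3 and to −0.011 without ISB-P replicate 2, in a range of −0.083 to 0.16 with 1 library left out. The count of members called higher, 3 as reported, was 1 under each of the scalings (upper quartile, quantile, common total), Hspb8 each time, 2 without the low filter or with it at 5 FPKM, 4 with the replicate block and 0 to 3 with 1 library left out, where 3 members, or 4 without ISB-P replicate 1, had an unadjusted p under 0.05 in limma. Leaving out a library leaves 2 against 3. The replicate block added Hspb11 and ended no member's call. The heat shock list had 10 higher, 20 with the replicate block and 4 to 9 with a library left out. Over all tested genes, 104 were higher and 59 lower, a higher share of 63.8%. These were 61 and 24 with the filter at 5 FPKM and 1228 and 1079 with the replicate block, 39 were lower under upper quartile scaling, and with a library left out 14 to 82 were higher and 6 to 31 lower. Scaling to a common total gave 70 and 70 (50.0% higher) and moved the median log2 fold change of all genes from 0.016 to −0.089. Measured from those medians, Hspb6 stood at 0.050 and 0.043, so it did not turn. The cause of these shifts was not tested. With 3 libraries per film of unknown depth, a change the size of that of Hspb11 was not called without the block.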
